A study of Homo sapiens with 12 samples.

Results

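Hep3B and Huh7 are established lines of hepatocellular carcinoma, the most common primary cancer of the liver, and the comparison here was between the 4 Hep3B libraries and the 4 Huh7 libraries, 8 of the 12 of the study. Both lines were labelled WT for genotype and were collected at 48 h, either untreated, treated with AZD8055, an inhibitor of the mTOR kinase, treated with compound #57, an allosteric inhibitor of the phosphatase SHP2, or treated with the combination. Each line and treatment had 1 library, so that a Hep3B library was paired with the Huh7 library of the same treatment and gave 4 pairs. The libraries held between 10659952 and 15957252 reads, and all 11548 genes of the table were compared. Each line stands for 1 culture lineage with no second isolate, so no p-value below measures the spread between cultures. The p-values of a line difference measure it against how that difference varied over the 4 treatments.

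Hepatocytes secrete most of the proteins of blood plasma, and a small set of transcription factors, among them HNF4A and FOXA2, keeps their genes active. Liver cancers often keep part of this programme and switch on genes of the fetal liver, such as AFP (alpha-fetoprotein), GPC3 (a membrane proteoglycan) and the imprinted pair IGF2 and H19. Imprinted genes, genes with a CpG-rich promoter and genes of the X chromosome can be silenced by DNA methylation, a modification of cytosines in CG dinucleotides that these data did not measure.

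Levels are given below as normalised read counts (reads of a gene per 10000000 reads of the library) in the order untreated, AZD8055, compound #57 and combination. A difference is Hep3B minus Huh7 on the scale of log2(normalised read count + 1), averaged over the 4 pairs, with its standard error (SE) and the adjusted p-value of limma. A fold is taken from that difference, so where a line had few reads its size depends on the added 1. A gene was called where that p-value was under 0.05, and its difference was taken as held under all treatments where the gene was called and at least 2-fold apart in the same direction in each of the 4 pairs. The gene filter of the table is not given, but the lowest mean log2 value of a gene over the 12 libraries of the study was 4.647. A filter on this mean is inferred from that. Under such a filter a gene active in 1 line alone entered the table only where that level was high. A gene low in Hep3B or Huh7 could also enter through its level in MHCC97H, the third line of the study. The counts of such genes below are counts within this table.

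The lines differed in a large part of the transcriptome. Of the 11548 genes, 3728 (32.3%) were called higher in Hep3B and 3052 (26.4%) higher in Huh7. A difference held under all treatments was found for 747 genes higher in Hep3B (6.47%) and 607 genes higher in Huh7 (5.26%). The correlation across genes was between 0.908 and 0.972 for 2 libraries of the same line and between 0.75 and 0.815 for libraries of different lines. The line difference itself was similar from treatment to treatment, with correlations across genes between 0.865 and 0.93. The direction was the same in all 4 pairs for 67.2% of genes, and only 34 genes were at least 2-fold higher in Hep3B in 1 pair and at least 2-fold higher in Huh7 in another. Of the 4768 genes that were not called, 4382 had a 95% interval that lay within a 2-fold difference in either direction. The 2-fold limit divides a continuous range, as TMEM206 just inside it had a smallest difference of 1.0004 over the pairs and PIGF just outside it 0.9997.

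**Figure D1:**
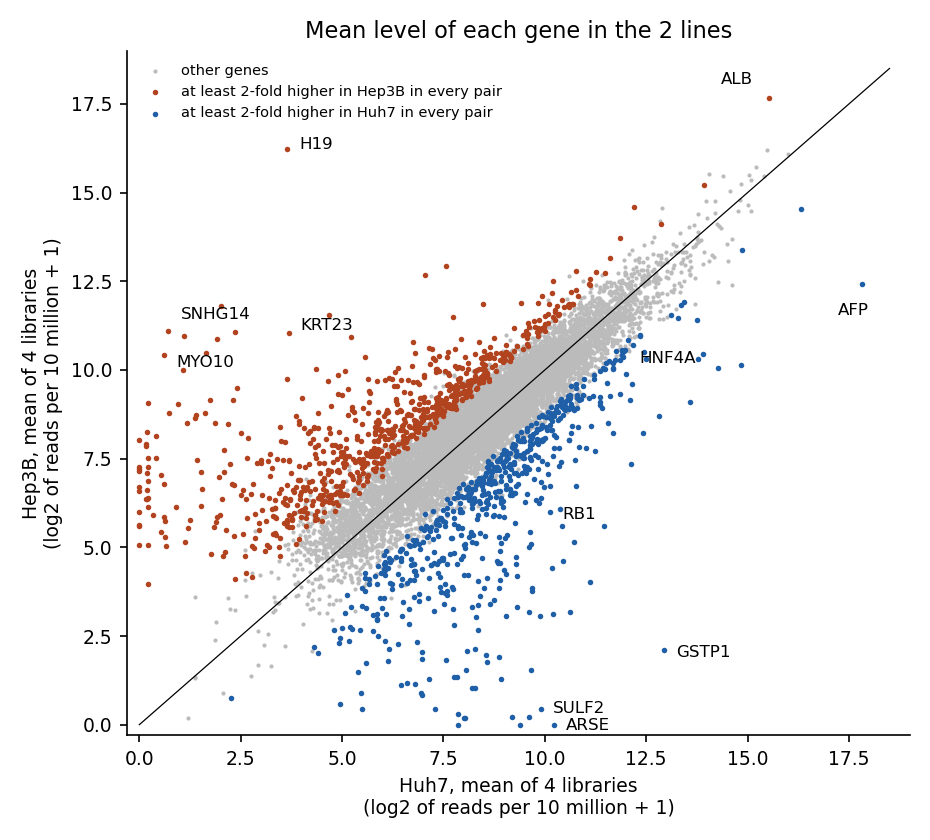
Mean level of each gene over the 4 Huh7 libraries (horizontal axis) and the 4 Hep3B libraries (vertical axis), both as log2 of reads per 10000000 plus 1, with the line of equal levels. The 747 genes held higher in Hep3B lie above the line and the 607 held higher in Huh7 below it, with H19 and GSTP1 farthest out among the labelled genes.

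All 10 hepatocyte markers checked were expressed in both lines, and 5 of them, ALB, AFP, TTR, TF and FGB, were called unequal. ALB, which encodes albumin, had normalised read counts of 211080, 119640, 402560 and 181160 in Hep3B and of 40749, 23891, 76491 and 68574 in Huh7. All 4 Hep3B libraries lay above all 4 Huh7 libraries, with a difference of 2.12 (SE 0.25, adjusted p = 0.000351). AFP went the other way, with 5700, 3390, 9623 and 5091 in Hep3B and 243250, 205380, 286880 and 199840 in Huh7. This was a difference of -5.38 (SE 0.20, adjusted p = 3.089e-06), or 41.7-fold, and AFP was the most abundant gene of every Huh7 library while ALB was that of every Hep3B library. The 2 genes are neighbours on chromosome 4 (ALB at 73397114 to 73421482 and AFP at 73431138 to 73456174, hg38). TTR, a carrier of thyroid hormone, was higher in Huh7, with 420 to 739 in Hep3B and 822 to 2480 in Huh7 (difference -1.53, adjusted p = 0.0001924). FGB, a fibrinogen chain, was also higher in Huh7 (difference -2.21, adjusted p = 0.007485), and TF, the iron carrier transferrin, was higher in Hep3B (difference 0.56, adjusted p = 0.01671), and none of these 3 was held. APOB, SERPINA1, APOA1, KRT8 and KRT18 were not called, with 95% intervals from -0.14 to 0.66, -1.01 to 0.26, -0.96 to 0.01, -0.60 to 0.05 and -0.59 to 0.25. Of 32 markers of immune, endothelial and stromal cells, 5 were in the table. Together they had 391 to 1573 reads per Hep3B library and 1625 to 12908 per Huh7 library, and LYZ (lysozyme), held higher in Huh7 (9.74-fold), had 31.6 to 1141 in Hep3B and 523 to 7518 in Huh7. The part of these markers in the results was not tested.

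The liver transcription factors were called about as often as other genes but were rarely held. Of the 35 listed, 33 were measured, 3 were called higher in Hep3B, 15 higher in Huh7 and 15 were not called, and 1 (NR2F1, a nuclear receptor, 3.94-fold higher in Huh7) was held. The share called over all genes was 58.7%, with 26.4% higher in Huh7, and the share held was 3.03% of the list against 11.7% of all genes. The median difference of the list was -0.314 beside 0.063 for all genes. HNF4A had normalised read counts of 2079, 2506, 3187 and 3184 in Hep3B and 3026, 3315, 4322 and 4114 in Huh7, so each pair was higher in Huh7, by 1.36-fold on average (difference -0.44, SE 0.09, adjusted p = 0.004428). FOXA2 differed by -0.40 (SE 0.09, adjusted p = 0.007908). The farnesoid X receptor NR1H4, which senses bile acids, was 2.30-fold higher in Huh7 (difference -1.2, SE 0.26), and its target NR0B2 was 2.36-fold higher in Hep3B (difference 1.24, SE 0.22).

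Secreted proteins were held in both directions. Of 30 measured plasma transport proteins and apolipoproteins, 5 were held higher in Hep3B and 4 higher in Huh7, and of 37 measured genes of coagulation, complement and protease inhibition the counts were 4 and 6. These were 30% and 27% of the lists, against 11.7% of all genes, and the difference between these lists and the transcription factors was not tested. The vitamin D binding protein gene GC had 5741, 5415, 11085 and 10723 in Hep3B and 234, 88.9, 353 and 167 in Huh7, a 41.4-fold difference with no overlap. FGL1 (a liver-secreted fibrinogen-like protein), APOA2 and APOH were also held higher in Hep3B, by 16.4-fold, 5.30-fold and 4.17-fold. IGFBP2, which binds insulin-like growth factors, had 2.81, 2.45, 4.48 and 3.24 in Hep3B and 205, 190, 373 and 352 in Huh7 (64.2-fold). MTTP, which loads lipid onto apolipoprotein B, was 4.34-fold higher in Huh7.

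Within complement, SERPING1, the inhibitor of C1, was 17.2-fold higher in Huh7, while the C1 protease C1R was 5.85-fold and the central component C3 3.63-fold higher in Hep3B. SPINK1, a trypsin inhibitor, was 19.7-fold higher in Huh7 (adjusted p = 1.819e-06) and the coagulation factors F12 and F7 were 8.79-fold higher in Huh7 and 3.48-fold higher in Hep3B. FGA and FGG were not called, and their order changed between pairs. Untreated Hep3B had 3458 of FGA against 8232 in Huh7, and with compound #57 these values were 21894 and 13795.

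H19 showed the largest difference of the table that was held under all treatments. This imprinted long non-coding RNA (chromosome 11, 1995166 to 2004552, hg38) had normalised read counts of 75370, 96130, 64662 and 73209 in Hep3B and of 8.15, 11.6, 12.5 and 14.6 in Huh7. The difference was 12.58 (SE 0.16, adjusted p = 7.019e-08), or 6120-fold. Its neighbour IGF2, which encodes a fetal growth factor and shares enhancers with H19, was high in all 8 libraries, from 30540 to 46609 in Hep3B and from 23097 to 35941 in Huh7, and was not called (difference 0.41, 95% interval -0.01 to 0.84).

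Of 34 listed oncofetal and progenitor genes, H19, AFP and GPC3 among them, 28 were measured. With H19 and AFP counted, 5 were held higher in each line (35.7% of the list against 11.7% of all genes). KRT23, a keratin, had 2438, 4168, 1046 and 1821 in Hep3B and 26.3, 16.6, 8.12 and 5.16 in Huh7 (164-fold). EPCAM, a surface glycoprotein of hepatic progenitors, and SALL4, a fetal transcription factor, were 5.6-fold and 3.12-fold higher in Hep3B. PEG10, an imprinted gene derived from a retroelement, had 938, 609, 2375 and 1205 in Hep3B and 28789, 24761, 39189 and 26301 in Huh7 (25.9-fold). LIN28B, which blocks maturation of let-7 miRNAs, was 4.59-fold and CD44, a hyaluronan receptor, 14.2-fold higher in Huh7. GPC3 was not called, with 10672 to 21287 over the 8 libraries and a 95% interval from -0.22 to 0.45, and neither was IGF2BP1 (interval -0.35 to 0.20).

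Several genes were near absent in 1 line and abundant in the other. At most 3 reads in each of the 4 libraries were found for 41 genes in Huh7 and for 23 in Hep3B, of which 41 and 20 were held. Of these 41 and 23 genes, 37 and 18 had at least 25 reads in every library of the other line. The rest were lower there, as CEACAM6 had 8 reads over the Hep3B libraries and 9 over the Huh7 libraries. In every MHCC97H library, 40 of the 41 and 22 of the 23 had at least 25 reads. SNHG14, the host transcript of small nucleolar RNAs in the imprinted region of chromosome 15, had 11323 reads over the Hep3B libraries and 5 over the Huh7 libraries, a ratio of 2370 after scaling to library size (95% counting interval 1010 to 7290). The protein gene SNRPN beside it had 1284 and 1 reads (ratio 1340, interval 241 to 53100). Both genes lie within 24823637 to 25420336 of chromosome 15, and as they adjoin, reads near their border could be counted for either. MYO10, an unconventional myosin of filopodia, had 1514, 1880, 976 and 1305 normalised reads in Hep3B and 1.88, 0, 0 and 0.861 in Huh7 (ratio of summed reads 1840, interval 719 to 6760). NUPR1, a stress-response regulator of chromatin, had 5633 and 6 reads (ratio 982, interval 451 to 2680). PAQR8, a membrane progestin receptor that passed this limit with at most 7 reads in a Huh7 library, had 2597 to 5478 in Hep3B and 2.21 to 4.39 in Huh7.

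In the other direction, GSTP1, which conjugates glutathione to electrophiles and had at most 7 reads in a Hep3B library, had 1.88, 3.27, 3.20 and 5.67 in Hep3B and 7567, 6870, 9076 and 8118 in Huh7. Its difference of -10.83 (SE 0.19, adjusted p = 3.82e-07) was the largest of those higher in Huh7 in every pair. ARSE, an arylsulfatase gene on chromosome X, had 0 reads in all 4 Hep3B libraries and 6387 in Huh7, which made it at least 2040-fold higher in Huh7 against a floor of 3 reads over the 4 libraries. SULF2, which removes sulfate from heparan sulfate, had 2 reads over the Hep3B libraries and 5089 over the Huh7 libraries (ratio 2430, interval 673 to 20100). MUC15, a membrane mucin, had 1 and 4157 reads (ratio 3980, interval 713 to 157000), and EMC10, a subunit of the membrane protein insertion complex of the endoplasmic reticulum, 1 and 3097 (ratio 2960, interval 531 to 117000). VCAN, an extracellular proteoglycan, had 0 to 5.63 in Hep3B and 368 to 1626 in Huh7. These intervals cover counting error only.

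The 250 bases before the start of 3 genes are shown because GSTP1 had the largest difference toward Huh7, AMER1 was near absent in Huh7 and LAS1L, on the same stretch of chromosome X as AMER1, was at a like level in both lines. They are from RefSeq (GRCh38.p14), 5′ to 3′ on the strand of the gene, at chr11:67583562-67583811 (plus strand), chrX:64205709-64205958 (minus strand) and chrX:65534788-65535037 (minus strand), with each CG dinucleotide in capitals.
GSTP1: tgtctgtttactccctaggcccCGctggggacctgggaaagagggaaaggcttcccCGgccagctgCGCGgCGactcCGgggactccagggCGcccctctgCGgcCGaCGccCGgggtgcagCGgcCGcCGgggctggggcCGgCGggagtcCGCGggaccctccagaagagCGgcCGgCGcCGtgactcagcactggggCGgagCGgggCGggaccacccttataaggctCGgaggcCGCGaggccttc
AMER1: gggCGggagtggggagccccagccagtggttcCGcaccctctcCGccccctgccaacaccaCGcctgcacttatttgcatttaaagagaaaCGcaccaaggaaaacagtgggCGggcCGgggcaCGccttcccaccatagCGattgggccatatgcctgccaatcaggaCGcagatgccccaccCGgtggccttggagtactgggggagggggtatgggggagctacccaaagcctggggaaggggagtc
LAS1L: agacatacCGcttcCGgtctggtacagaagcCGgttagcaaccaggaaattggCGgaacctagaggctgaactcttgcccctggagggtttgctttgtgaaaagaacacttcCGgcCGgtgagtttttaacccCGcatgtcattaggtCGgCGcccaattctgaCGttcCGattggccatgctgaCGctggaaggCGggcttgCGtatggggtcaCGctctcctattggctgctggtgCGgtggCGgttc
The letters CG occur 28 times in the GSTP1 window, 11 times in that of AMER1 and 17 times in that of LAS1L. Over the 6484 genes of the table with such a window, the median was 22 and 91.3% held at least 10. The share with at least 10 was 80.2% among the genes held higher in Hep3B (369 with a window) and 79.9% among those held higher in Huh7 (294). It was 85.7% of the 21 genes near absent in Huh7 and 66.7% of the 12 near absent in Hep3B that had one. The median count was 21 for genes held higher in Hep3B and 20 for those held higher in Huh7. It was 15 for genes near absent in Huh7 and 14.5 for those near absent in Hep3B. These counts describe the sequence alone.

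Of the 41 genes near absent in Huh7, 22 lay on chromosome X, and 20 of these fell in 1 stretch of 34.3 Mb, from GSPT2 to CHM (51743442 to 86047561, hg38). The stretch held 65 measured genes, of which 26 (40%) were held higher in Hep3B and 0 higher in Huh7. On the other 280 genes of the chromosome these counts were 11 (3.93%) and 37 (13.2%). The ends of the stretch were set at genes near absent in Huh7, so these shares describe it and are no test. MSN, which encodes moesin, a linker of the membrane to actin, was not counted among the 20, as it had up to 4 reads in a Huh7 library, and had 1363, 1787, 954 and 1715 in Hep3B and 1.88, 3.32, 0.738 and 3.44 in Huh7 (difference 8.82, SE 0.17). AMER1, a scaffold of the complex that degrades beta-catenin, had 928 reads over the Hep3B libraries and 2 over the Huh7 libraries (ratio 485, interval 134 to 4010). BRWD3, a bromodomain protein, had 2706 and 1 (ratio 2830, interval 507 to 112000), and CHM, which escorts Rab proteins to their lipid-adding enzyme, 2248 and 4 (ratio 588, interval 229 to 2160). EFNB1 (ephrin B1), GSPT2, PJA1 and ZNF711 had 0 reads in every Huh7 library.

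Genes at like levels in both lines lay between them. Of the 45 genes of the stretch that were not near absent in Huh7, 33 differed by less than 2-fold on average, and their median difference was -0.013. LAS1L, a ribosome biogenesis factor that lies between AMER1 and MSN, had 542, 571, 365 and 383 in Hep3B and 570, 559, 482 and 639 in Huh7 (95% interval -0.63 to 0.04). OGT, the enzyme that adds N-acetylglucosamine to nuclear proteins, and NONO, an RNA-binding protein, had intervals from -0.43 to 0.32 and from -0.14 to 0.67. YIPF6 was 1.70-fold higher in Huh7. The genes near absent in Huh7 were therefore interspersed with expressed ones. Each of the 20 had at least 25 reads in every MHCC97H library, the third line of the study, which the inferred filter on the mean would favour. The 118 measured genes before the stretch were lower in Hep3B, with a median difference of -0.727. Of these, 81 were called higher in Huh7 and 5 higher in Hep3B, beside 26.4% and 32.3% of all genes. The 162 after the stretch had a median of 0.114.

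The line difference also varied by chromosome over the whole genome. Over all genes, 32.3% were called higher in Hep3B and 26.4% higher in Huh7, with a median difference of 0.063. On chromosome 17, 59.4% of the 673 genes were called higher in Hep3B and 6.84% higher in Huh7, and the median difference was 0.475. On chromosomes 6 and 22 the medians were 0.385 and 0.368. On chromosome 18, 57.9% of 164 genes were called higher in Huh7 and 14.6% higher in Hep3B (median -0.538), and on chromosome 9, 52.5% of 459 genes were higher in Huh7 and 7.84% higher in Hep3B (median -0.394). These medians were of the same sign under each treatment. Among all runs of 20 neighbouring genes, the highest median outside chromosome X was 1.364, from STK24 to CARS2 on chromosome 13 (98445185 to 110713603), and the lowest was -1.955, from LTB4R2 to ARHGAP5 on chromosome 14 (24305734 to 32159728), where 12 of 20 genes were held higher in Huh7. Chromosome 13 held both directions, since the run from ATP7B to LMO7 (51930436 to 75859870) had a median of -1.461. Copy number was not measured, and its part in these values was not tested.

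The 15 mitochondrial transcripts differed with the treatment. Their median difference was 1.106 in untreated cells, 1.683 with AZD8055 and 1.097 with compound #57 and was -0.104 with the combination. They took 4.17%, 4.09%, 4.66% and 1.87% of the reads in Hep3B and 2.36%, 1.59%, 2.36% and 2.69% in Huh7, so the Hep3B library of the combination stood apart. MT-RNR2, the large ribosomal RNA of mitochondria, had 44274, 65335, 58618 and 30111 in Hep3B and 10669, 12671, 16196 and 38717 in Huh7, and 0 of the 15 were held.

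SAT2, a polyamine acetyltransferase family gene on chromosome 17 (7626234 to 7627876, hg38), had 0 reads in all 4 Hep3B libraries and 3807 in Huh7, at least 1210-fold more against a floor of 3 reads. FXR2, the measured gene before it, had 200, 239, 183 and 214 in Hep3B and 749, 801, 665 and 804 in Huh7 (3.61-fold). MPDU1, which overlaps the end of FXR2, was 1.74-fold higher in Hep3B. As counting by strand is not given in the sources used here, reads in this overlap could be counted for either gene.

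MDM2, a ubiquitin ligase, had 1173, 789, 754 and 673 in Hep3B and 1149, 988, 765 and 639 in Huh7 (difference -0.06, 95% interval -0.30 to 0.18). CDKN1A, the cell cycle inhibitor p21, was not called and its order changed, with 22.5 in untreated Hep3B against 73.3 in untreated Huh7 and 140 against 37.6 with compound #57.

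RB1, the retinoblastoma tumour suppressor (chromosome 13, 48303744 to 48599436), had 61.0, 51.5, 74.3 and 65.6 in Hep3B and 1214, 1121, 1197 and 981 in Huh7 (difference -4.15, SE 0.13, adjusted p = 1.82e-06). Of the 54 measured genes of the RB and E2F list, 5 were held higher in Hep3B and 4, RB1 included, higher in Huh7 (16.7% of the list against 11.7% of all genes). CDKN2A, which encodes p16, was 4.44-fold higher in Hep3B (783, 779, 342 and 365 against 158, 107, 159 and 70.6). CCND1, the cyclin that binds CDK4 and CDK6, was 3.85-fold higher in Huh7, and CCND3, another such cyclin, 5.54-fold higher in Hep3B. CDKN1C, an imprinted cell cycle inhibitor near IGF2, had 348, 196, 2178 and 799 in Hep3B and 8.77, 14.1, 11.8 and 33.6 in Huh7 (36.8-fold). The proliferation markers MKI67 and TOP2A were not called (differences -0.16 and 0.20).

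The interferon response and antigen presentation list leaned most to Hep3B. Of 81 listed genes 43 were measured. Of these, 21 were called higher in Hep3B and 4 higher in Huh7, beside 32.3% and 26.4% of all genes. The held counts were 15 and 1 (37.2% of the list against 11.7% of all genes). HLA-B had 172, 226, 336 and 409 in Hep3B and 2.51, 6.65, 8.12 and 6.02 in Huh7 (difference 5.4, SE 0.22, adjusted p = 4.792e-06). HLA-C was 11.5-fold higher in Hep3B, as were MICA (20.9-fold), a ligand of an activating receptor of natural killer cells, and TAP1 (3.33-fold), which carries peptides to HLA molecules. The call of TAP1 was lost without treatment in the fit (adjusted p = 0.05785 by limma). B2M, the shared light chain, was 1.5-fold higher in Hep3B and not held. The interferon-induced membrane proteins IFITM3 and IFITM2 were both 11.1-fold higher, and IFIT5 was the held exception, 6.49-fold higher in Huh7. TAPBP, which also helps load peptides, was not called (95% interval -0.33 to 0.13). HLA-B and HLA-C share much of their sequence and differ between alleles, so the share of reads assigned to each is uncertain. Runs of 20 genes in their region of chromosome 6 were higher in Hep3B as a whole, with medians of 1.3 from ATAT1 to NFKBIL1 and 1.322 from GPANK1 to STK19.

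Of 61 measured drug metabolism enzymes, 9 were called higher in Hep3B and 27 higher in Huh7, beside 32.3% and 26.4% of all genes. Of these 4 and 9 were held (21.3% of the list against 11.7% of all genes). AKR1B1, aldose reductase, had 8 reads over the Hep3B libraries and 1172 over the Huh7 libraries (ratio 140, interval 70.9 to 325). CES1, a carboxylesterase, was 34.3-fold, CYP4F12 51.3-fold and GSTA1 38.5-fold higher in Huh7, though the last 2 have close relatives in the genome among which reads may be split. UGT2B4, which attaches glucuronic acid to bile acids, was 7.66-fold and SULT1A1 5.34-fold higher in Hep3B, with the same limit. NQO1, a quinone reductase, was not called and had 801 to 5185 over the 8 libraries. Of 22 measured bile acid and hepatocyte transport genes, 6 were held higher in Hep3B and 1 higher in Huh7 (31.8% of the list), beside 6.47% and 5.26% of all genes. The cholesterol importer NPC1L1 (5.13-fold) and the efflux pump ABCC1 (6.07-fold) were among the 6, and the organic cation transporter SLC22A3 (3.97-fold) was the 1.

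In metabolism, PFKP and PFKM, isoforms of 1 step, differed in opposite directions. Of the phosphofructokinases, PFKP had 51.6, 76.9, 40.3 and 34.8 in Hep3B and 0 reads in all 4 Huh7 libraries (at least 88.9-fold), and PFKM was 4.44-fold higher in Huh7. The glycolysis list as a whole had 3 of 39 held in each direction (15.4% against 11.7% of all genes), and GAPDH and PKM were not called (differences 0.23 and -0.05). CPT1A, which admits fatty acids to mitochondria, was 14.3-fold and FASN, the fatty acid synthase, 2.39-fold higher in Hep3B. FADS2, a fatty acid desaturase, had 1415, 1170, 2224 and 1052 in Hep3B and 21149, 11578, 23911 and 9473 in Huh7 (10.9-fold). Of 57 lipid genes, 5 were held higher in Hep3B and 7 higher in Huh7 (21.1% against the same 11.7%). Of 43 genes of the urea cycle and amino acid breakdown, 2 were held in each direction (9.3% of the list), with HPD, of tyrosine breakdown, 13.2-fold higher in Hep3B. MT2A, a metallothionein with close relatives, was 18.4-fold higher in Huh7, and the iron hormone HAMP 5.83-fold, while the zinc importer SLC39A4 was 13.6-fold higher in Hep3B. The iron, copper and metallothionein list had 2 held higher in Hep3B and 4 higher in Huh7 of 26 measured (23.1% against 11.7% of all genes).

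Of the targets of the study's inhibitors, MTOR was not called (difference 0.26, 95% interval -0.06 to 0.58), and PTPN11, which encodes SHP2, had 2855, 2895, 3071 and 3246 in Hep3B and 4415, 5060, 4559 and 4135 in Huh7. Each Huh7 library was above each Hep3B library, by 1.5-fold on average (difference -0.59, SE 0.11, adjusted p = 0.00255). Of 20 measured receptor tyrosine kinases, 4 were called higher in Hep3B and 6 higher in Huh7, beside 32.3% and 26.4% of all genes. Of these 4 and 2 were held (30% of the list against 11.7% of all genes). FGFR2 had 575, 480, 350 and 494 in Hep3B and 29.5, 36.6, 27.3 and 63.7 in Huh7 (12.3-fold), and EPHA1, DDR1 (a collagen receptor) and IGF1R were 11.1-fold, 3.64-fold and 3.17-fold higher in Hep3B. ROR1, a receptor for WNT ligands, was 17.1-fold and MERTK 3.16-fold higher in Huh7. FGFR1 (1.98-fold) and ERBB2 (1.62-fold) were also called higher in Huh7 but were not held. EGFR, FGFR3 and FGFR4 were not called, with intervals from -1.09 to 0.02, from -0.45 to 0.06 and from -0.66 to 0.01. FGF19, the ligand of FGFR4, was 2.56-fold higher in Huh7 and not held, and KLB, the co-receptor, was not called.

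Of 32 measured growth factor ligands and modulators, 6 were held higher in Hep3B and 5 higher in Huh7 (34.4% of the list against 11.7% of all genes). The EGFR ligands EREG and AREG were 22.3-fold and 5.22-fold higher in Hep3B, and NRG1, which binds ERBB3 and ERBB4, was 9.06-fold higher in Huh7. PDGFA was 11.3-fold higher in Hep3B, and EFNB1 was at least 113-fold higher there. SPRY2, DUSP4 and DUSP5, 3 single genes known as inhibitors of RAS-MAPK signalling, were higher in Huh7 in each pair, by 2.80-fold, 8.27-fold and 12.3-fold. The calls of AREG and SPRY2 were lost without treatment in the fit (adjusted p = 0.06286 and 0.101 by limma). Other such inhibitors were less uniform, as DUSP6 was higher in Huh7 (4.38-fold) but not held, and ERRFI1 was not called, with 2580, 4082, 813 and 1626 in Hep3B and 2236, 2751, 2047 and 2783 in Huh7. DUSP5 had 109, 209, 19.8 and 66.5 in Hep3B and 2303, 1493, 388 and 550 in Huh7.

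In the WNT list, 4 of 30 measured genes were held higher in Hep3B and 5 higher in Huh7 (30% against 11.7% of all genes). The negative regulators NOTUM (4.83-fold) and DKK1 (4.04-fold) were higher in Hep3B, and the receptors FZD3 (37.4-fold) and FZD7 (6.55-fold) were higher in Huh7. Another receptor, FZD5, was not called (difference 0.57, 95% interval 0.06 to 1.07, adjusted p = 0.05447 by limma). CTNNB1, which encodes beta-catenin, was 2.15-fold higher in Huh7 and AXIN1 1.37-fold higher in Hep3B. AXIN2 and GLUL, both targets of beta-catenin, were not called (differences -0.20 and -0.13). Also on the WNT list, CCND1 (3.85-fold) and FST (6.18-fold) were held higher in Huh7, and AMER1, near absent in Huh7, was held higher in Hep3B. The call of FST was lost without treatment in the fit. In the TGF-beta, activin and BMP list (42 measured), 7 were held higher in Hep3B and 6 higher in Huh7 (31% against the same 11.7%). TGFB1 and the latent TGF-beta binding proteins LTBP2, LTBP3 and LTBP4 were higher in Hep3B, by 3.65-fold, 34.7-fold, 3.99-fold and 7.12-fold. The receptors TGFBR1 and TGFBR3 and the signal transducer SMAD4 were higher in Huh7, by 3.35-fold, 13.6-fold and 2.78-fold. SMAD4 lies on chromosome 18, most of whose genes were called higher in Huh7.

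Of 46 measured epithelial and mesenchymal genes, 7 were held higher in Hep3B and 9 higher in Huh7, and of 55 matrix and integrin genes, 8 and 9. These were 34.8% and 30.9% of the lists, against 11.7% of all genes. CDH1 (E-cadherin) and VIM (vimentin) were both slightly higher in Hep3B, by 1.42-fold and 1.51-fold. S100A14, an epithelial calcium-binding protein, had 1578, 1249, 2493 and 2527 in Hep3B and 3.13, 2.49, 0.738 and 6.89 in Huh7 (501-fold). KRT80, a keratin, had 59.1, 584, 780 and 2759 in Hep3B and 0, 0.831, 0.738 and 3.44 in Huh7, from 5401 and 6 reads. LGALS1 (galectin 1) was 115-fold higher in Hep3B. The laminin chain LAMB3 had 293 reads in Hep3B and 3 in Huh7 (ratio 102, interval 34.6 to 498), and the integrin ITGB4 was 16.8-fold higher in Hep3B. CLDN6, a tight junction protein of fetal epithelia, had 11.3, 20.4, 21.8 and 61.6 in Hep3B and 716, 1706, 1490 and 2085 in Huh7 (56.5-fold). The matrix genes SPARC (86.4-fold) and COL1A2 (59.7-fold) and the actin-binding TAGLN (11-fold) were higher in Huh7, and ITGB1 was not called (difference 0.11). Of the cancer-testis antigens, 2 of 42 were measured and 0 were held.

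All 83 cytosolic ribosomal proteins were measured. Of these, 30 were called higher in Hep3B and 12 higher in Huh7, beside 32.3% and 26.4% of all genes. None was held (0 against 11.7% of all genes), and the median difference was 0.124 beside 0.063 for all genes. RPS18 (difference 0.97) and RPSA (difference -1.0) were at either end of the named members. Many ribosomal protein genes have processed copies in the genome, so these values are uncertain.

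Lastly, the fit asked where a treatment changed the lines unequally. The p-values of these interactions measure them against how far the combination departed from the added effects of both agents within each line. No replicate library enters them. The interaction of line with AZD8055 called 0 genes (0.0%) with limma on the log2 values, at a smallest adjusted p-value of 0.07871, while 929 genes had an unadjusted p-value under 0.05, and limma with voom weights on the recovered reads also called 0, with 942 genes at an unadjusted p-value under 0.05. The 3 genes with the smallest p-values were LOX, GPC1 and PSTPIP2. GPC1, a membrane proteoglycan, rose from 9.40 to 75.6 in Huh7 and from 412 to 632 in Hep3B in these single libraries.

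The interaction with compound #57 called 53 genes (0.459%). For 29 the difference moved toward Hep3B and for 24 toward Huh7 when compound #57 was present, with or without AZD8055. In 48 of the 53 the mean change was the larger one in Hep3B. GABRA2, a subunit of the GABA receptor, had 407 and 271 without and 35.2 and 28.4 with compound #57 in Hep3B, and 347, 863, 385 and 768 in Huh7 (interaction -3.34, SE 0.24, adjusted p = 0.005642). CXCL5, a chemokine, had 860, 1586, 112 and 194 in Hep3B and 175, 156, 179 and 232 in Huh7 (interaction -3.27, adjusted p = 0.005642). SLC1A3, a glutamate transporter, had 876, 542, 115 and 59.2 in Hep3B and 265, 373, 302 and 313 in Huh7. In all 3 genes both Hep3B libraries with compound #57 lay below both without it, and the Huh7 libraries with and without it overlapped or differed little. NDRG4 was higher with it in Hep3B, 20.6 and 55.6 against 465 and 408, and lower in Huh7, 394 and 937 against 183 and 517 (interaction 4.62, SE 0.46, adjusted p = 0.01503). UNC5B, a netrin receptor, had 8.44, 18.0, 73.6 and 122 in Hep3B and 1450 to 2073 in Huh7, and so stayed held higher in Huh7 under every treatment, as 9 of the 53 genes were held. The number of calls depended on single libraries. It was 4 without Huh7 AZD8055 or without Huh7 combination, 10 without Huh7 untreated, 19 without Huh7 compound #57, 14 without Hep3B untreated and 17 without Hep3B compound #57.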

How the data were processed

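RNA of the 8 libraries had been extracted with a column kit and made into polyA+ stranded libraries, per the labels, with hg38 as the genome build of the submitters' processing notes. The aligner, the counting program, its strand setting and the gene filter are not given in the sources used here. The values deposited by the authors are log2 values, read from the numbers themselves as log2(reads scaled to 10000000 per library + 1), since 100.0% of them gave whole reads within 0.02 of a read. Of 11548 genes, 96.8% were matched by symbol to GENCODE release 44 for coordinates, and promoter windows came from RefSeq.

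The log2 values were fitted with limma 3.58.1 (R 4.3.3, trended prior) with treatment and line as terms, which left 3 residual degrees of freedom. Interactions of line with AZD8055 and with compound #57 were fitted together with 2. P-values were adjusted by Benjamini-Hochberg over all 11548 genes. The tests were checked on simulated data. Counting intervals are exact, at 95%, and a line with 0 reads was set to a floor of 3 reads over its 4 libraries.

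The gene lists and comparisons were chosen with earlier results of these data known. Named genes followed a rule: in each direction the 15 held genes with the largest smallest difference over the 4 pairs; in each list up to 5 called members per direction by the same measure and up to 3 uncalled members of highest mean; in each interaction the 5 largest called per direction, or the 3 of smallest p where none was called; and a set of liver, RB, WNT, FGF19 and drug target genes in any case. This gave 304 genes, and 38 others were chosen after their values were seen. XIST and chromosome Y genes were left out, and some other genes, with 1 list, are not reported here. Alternatives were a pseudocount of 10, restriction to the upper 75% of genes by mean level, a 4-fold limit, centring on medians, no treatment block, no trend, all 12 libraries, voom on the recovered reads and leaving out libraries.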

Additional observations from a re-analysis of the deposited data

Results flagged for a closer look

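The change with compound #57 differed between Hep3B and Huh7 in 53 genes by the interaction term of limma. Among the named ones, the difference moved toward Huh7 for GABRA2 (-3.34), CXCL5 (-3.27), TENC1 (-3.20), SLC1A3 (-3.02) and AOX1 (-2.98), on the log2 scale. LOX (-2.82) and ERRFI1 (-1.44), named above in other comparisons, were also among the 53, with the difference moving toward Huh7. The difference moved toward Hep3B for NDRG4 (4.62), CTSE (3.49), CDH17 (3.48) and UNC5B (3.11). In untreated and AZD8055-treated Hep3B, CTSE had 0 and 5 reads and CDH17 had 2 and 0. The sizes of these terms for CTSE and CDH17 therefore depend on the added 1. CTSE and CDH17 also rose with compound #57 in both Huh7 pairs. Over the 53 genes, 9 fell in both Huh7 pairs and rose in both Hep3B pairs, 10 did the opposite, 7 fell in both lines and 17 rose in both. CXCL5, GABRA2 and SLC1A3 kept the call under every alternative run. CDH17, CTSE and AOX1 lost it with voom on the recovered reads.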

How the results depend on the processing

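Among the named genes, 0 of the 265 called changed direction under an alternative, and 4 of the 186 held lost the call, each without the treatment block (AREG, adjusted p = 0.06286, FST, 0.05083, SPRY2, 0.101, and TAP1, 0.05785, by limma). The call was lost under at least 1 alternative by 33 of the 265 called (30 of them under an alternative other than leaving out libraries), and 23 of the 77 not called were called under one. Genes held numbered 371 higher in Hep3B and 351 higher in Huh7 among the 75% of genes with the highest mean, and 234 and 191 with a 4-fold limit, which keep fewer genes by construction. Without the treatment block 2668 and 2101 genes were called, with 734 and 596 held. Centring on medians gave 3447 and 3343 called. With libraries left out, genes called ranged from 3073 to 3545 higher in Hep3B and from 2479 to 2962 higher in Huh7, genes held from 807 to 981 and from 654 to 721, the AZD8055 interaction stayed at 0, and the compound #57 interaction ranged from 4 to 55. Voom on the recovered reads called 42 for the latter. Leaving out a library removed its pair, so the 2-fold limit of held genes then applied to fewer pairs. The cause of the other changes was not tested. No paired analysis by replicate number was possible because the labels carry none, and the pairing used was by treatment. With 1 library per line and treatment, variation between cultures was not measured.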
